A study of Schizosaccharomyces pombe with 9 samples.

Results

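The genes described here are the 61 protein-coding genes of fission yeast, Schizosaccharomyces pombe, whose product is annotated as a protein specific to this species. They were picked by that phrase in the annotation deposited with the data, after leaving out genes named mug or meu (upregulated in meiosis) and the IDs of several blocks near chromosome ends, and they are 61 of 5156 coding genes and of 6988 gene IDs in all. The exclusions removed 20 further coding genes with the same phrase, and 1 non-coding ID that carries it was also left out. Values were not used to choose members.

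RNA was measured in 9 libraries, 3 biological replicates each of snf22-(D996A-E997A), snf22∆ and WT. In snf22-(D996A-E997A) cells, D996A and E997A alter the ATPase site of Snf22, and a kanMX drug resistance marker follows the gene after an added nmt1 poly(A) site. In snf22∆ cells, kanMX takes the place of the gene's start and most of its coding sequence, of which the end was kept. The labels name no marker for WT, so that effects of the marker cannot be told apart from those of the mutations. The labels give all strains as h-, whereas the paper's strain list has snf22∆::kanMX without other marked genes as h+. That list also gives mutations of leu1, ura4 and his3 shared by all strains, and an ade6 allele that varies. The cells were harvested in log phase from YES medium at 30°C, and each genotype is 1 strain with its own lab number. The replicates are described as biological, without saying more about how the cultures were kept apart.

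A gene found in a single species and without recognized relatives elsewhere is called an orphan gene. Such genes can be young, can have diverged beyond recognition, or can be reading frames that make little or no protein, and most have no known function. SWI/SNF is a complex that uses ATP to slide or evict nucleosomes at promoters, and Snf22 is its ATPase subunit.

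Library totals were 15696972 to 22664218 counts. The snf22 transcript (SPCC1620.14c) had 1966, 2273 and 2312 normalized counts in snf22-(D996A-E997A), 1471, 1379 and 1222 in snf22∆, and 2835, 2779 and 2738 in WT, where a normalized count is a count scaled to the mean effective library size. Markers of the M (h-) cell type, mfm1, mfm2, mfm3 and mam2, were detected in every library, and their summed normalized count was 4318 to 4814 in snf22-(D996A-E997A), 491.8 to 881.0 in snf22∆ and 1895 to 2215 in WT. The P cell genes map2 and map3 summed to 457.0 to 553.3 in snf22-(D996A-E997A), 513.4 to 548.0 in snf22∆ and 572.2 to 654.9 in WT. WT replicate 2 and snf22-(D996A-E997A) replicate 1 stood apart from their fellow replicates, with a chi-square per gene of 59.2 to 70.8 and of 32.9 to 34.9, against 5.15 to 18.4 for all other pairs within a genotype. WT replicate 2 was the highest WT library for 21 of the 49 members tested.

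The species specific genes encode short products. The coding length was taken from RefSeq (assembly ASM294v3), in which 60 of the 61 IDs were found (SPAC20G4.09 was not), and its median was 351 bases, with a range of 99 to 2538 bases, against 1137 bases for all coding genes. The predicted proteins have 32 to 845 residues, with a median of 116. Of the genes, 28 lie on chromosome I, 14 on chromosome II and 18 on chromosome III. None has a gene name, and 3 have a further remark in their description: SPAC29E6.07 (expressed in the meiotic cell cycle), SPAPB18E9.04c (a possible cell surface glycoprotein) and SPCC757.06 (similar to a region of alpha-galactosidase). RefSeq adds that SPBC25B2.08 is phosphate responsive. Sequences of the genes are not printed, because the files use the genome version ASM294v2.

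Transcripts of these genes were scarce. In WT the median member had a normalized count of 91.9, against 588 for the 111 genes annotated as specific to the genus Schizosaccharomyces, 30.6 for the 67 coding loci annotated as dubious and 1234 for all coding genes. Short genes give fewer counts, so levels were also set per kb of coding length. The authors counted reads over annotated exons, which can extend beyond the coding sequence. This scale can therefore raise the values of genes with the shortest coding lengths. On that scale the medians in WT were 276 normalized counts per kb for the members, 816 for the genus specific genes, 85.1 for the dubious loci and 982 for all coding genes. As a description, the species specific genes thus lay between the dubious loci and the genus specific genes on both scales, and these lists were not tested against each other. All 61 together took 0.078% to 0.0848% of a library in snf22-(D996A-E997A), 0.0837% to 0.0873% in snf22∆ and 0.0948% to 0.0969% in WT. The ranges of the mutants lie below that of WT, and SPAPB24D3.07c and SPBC1271.08c, described below, are the most abundant members in WT.

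**Figure D1:**
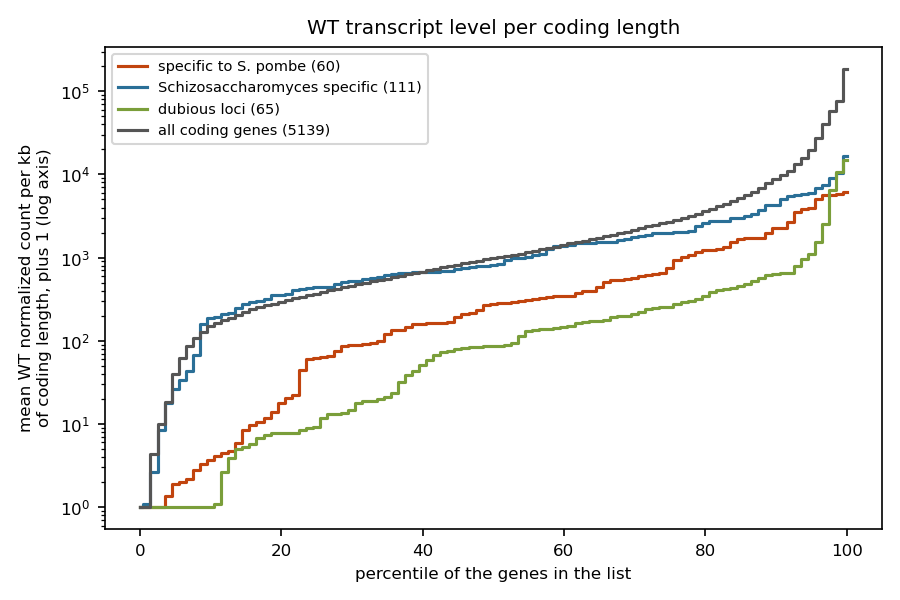
The plot gives, for each gene list, the mean WT normalized count per kb of coding length (plus 1, log axis) at each percentile of the list, for the 60 species specific genes with a coding length, the 111 genus specific genes, the dubious loci and all coding genes. The curve of the species specific genes runs above that of the dubious loci and below the other curves over most of its range, with medians of 276, 85.1, 816 and 982 for members, dubious loci, genus specific and all coding genes.

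Members differed widely among themselves. In WT, 32 had a mean normalized count under 100, 22 had at least 100 but under 1000, and 7 had 1000 or more, and 1230 coding genes had a higher WT level than the highest member. Per kb of coding length, SPBC29A3.21 was the most abundant in WT at 6208 normalized counts per kb, followed by SPAC4G9.22 at 5667 and SPBC1271.08c at 5662, which are close to each other. SPCC191.03c had 3896, SPAPB24D3.07c 3744, SPCC622.01c 2287, SPBC1711.15c 2243 and SPCC622.02 1725 normalized counts per kb. These 8 abundant genes did not behave alike: SPBC1271.08c, SPAPB24D3.07c and SPBC1711.15c were called lower in both mutants, and the other 5 were called in none of the 3 comparisons.

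Among these 5, SPBC29A3.21 had 1719, 1633 and 1561 normalized counts in snf22-(D996A-E997A), 1663, 1749 and 1714 in snf22∆, and 1811, 2134 and 1698 in WT. SPCC191.03c had 1585, 1567 and 1562 in snf22-(D996A-E997A), 1408, 1364 and 1364 in snf22∆, and 1406, 1517 and 1215 in WT. Neither differed from WT at an adjusted p of 0.05 in either mutant (the adjusted p from edgeR in snf22-(D996A-E997A) was 0.0743 for SPBC29A3.21 and 0.0765 for SPCC191.03c, and in snf22∆ it was 0.19 and 0.988). SPAC4G9.22 had 2174, 2055 and 2162 normalized counts in snf22-(D996A-E997A), 1484, 1416 and 1296 in snf22∆, and 1431, 2033 and 1381 in WT. All its ATPase mutant libraries lay above all its snf22∆ and WT libraries, with WT replicate 2 close below, and its log2 fold change was 0.40 relative to WT and 0.61 relative to snf22∆ (adjusted p = 0.0229 and 0.00759 from edgeR). The difference from WT did not pass in every case, with an edgeR adjusted p of 0.0809 without WT replicate 1. SPCC622.01c and SPCC622.02, neighbors but for 1 gene on chromosome III, had changes of at most 0.19 in size on the log2 scale relative to WT, none of which passed the adjusted p.

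Replicates of these genes were more scattered than those of the average gene. The median SD of log2 normalized counts within a genotype was 0.20 for the members and 0.11 for all coding genes. Among the 29 members with a WT mean of at least 100 it was 0.16, against 0.11 for all coding genes with such a mean. These sets share a lower limit but are not matched in level. Of the members 22 had a mean under 1000 and 7 had more, against 1888 and 2822 coding genes. The part that level plays in the scatter was not tested. The least steady of these 29 were SPBC14C8.11c, SPBC31F10.17c and SPBC1271.08c. SPBC31F10.17c had 163, 158 and 233 normalized counts in snf22-(D996A-E997A), 171, 182 and 245 in snf22∆, and 134, 119 and 209 in WT, and replicate 3 was the highest in every genotype. Across replicates its genotypes overlapped, and it did not pass in the fit without the block (edgeR adjusted p = 0.36 in snf22-(D996A-E997A) and 0.189 in snf22∆). Within each replicate number the libraries of both mutants were above the WT library. With replicate as a block the log2 fold change of 0.39 in snf22∆ passed (adjusted p = 0.0201), short of 2-fold.

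For the tests, a gene needed 10 counts or more in 3 or more libraries, and 49 of the 61 members met this. The 12 others were SPAC1687.23c, SPAC17H9.18c, SPAC20G4.09, SPAC27E2.12, SPAC513.04, SPAC683.03, SPAPB8E5.08, SPBC83.19c, SPBCPT2R1.02, SPCC13B11.02c, SPCC1442.11c and SPCC191.10. None of the 12 exceeded 9 counts in any library, their sums over all 9 libraries were 0 to 51 counts, and only SPBCPT2R1.02 had no count at all. They were not tested. SPAC27E2.12, named for its values, had 5, 5 and 3 raw counts in snf22-(D996A-E997A), 7, 7 and 8 in snf22∆, and 3, 1 and 2 in WT. SPAC22F8.03c and SPCC191.04c passed this filter only through their counts in the mutants and SPAPJ695.02 only through WT. The filter itself thus favored a difference for these 3, and counts over the tested members include them. SPAC8E11.06 and SPCC569.04 also had fewer than 3 WT libraries with 10 counts. A gene was called when edgeR's quasi-likelihood test gave an adjusted p of at most 0.05 over the 6091 genes tested, the change was at least 2-fold, and the mean normalized count was at least 100 in the group with more.

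Relative to WT, 5 members were called lower and 0 higher in snf22-(D996A-E997A), and 6 were called lower and 3 higher in snf22∆. Over all coding genes tested, 1.74% were called lower and 1.56% higher in snf22-(D996A-E997A), and 2.22% lower and 2.22% higher in snf22∆. The members' own shares of the 49 tested were 10.2% lower and 0.0% higher in snf22-(D996A-E997A), and 12.2% lower and 6.12% higher in snf22∆. For the ATPase mutant, DESeq2 also called 0 members higher, while 20 members were higher at an unadjusted p under 0.05 and 15 at the adjusted p alone. By the adjusted p alone, 12 members were lower in snf22-(D996A-E997A), and 11 were lower and 16 higher in snf22∆. Together 55.1% of the tested members passed in each mutant, against 47.9% of coding genes in snf22-(D996A-E997A) and 58.1% in snf22∆. By direction, 19.6% of coding genes were lower and 28.2% higher in snf22-(D996A-E997A), and 24.6% lower and 33.5% higher in snf22∆.

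Sizes of change had a larger median than over all coding genes, but not in every group of members. The median size of the log2 fold change was 0.71 in snf22-(D996A-E997A) and 0.60 in snf22∆ over the members tested, against 0.26 in snf22-(D996A-E997A) and 0.32 in snf22∆ over all coding genes tested. The 7 members with a WT mean of 1000 or more had a median size of 0.40 in snf22-(D996A-E997A) and 0.14 in snf22∆, and the 15 tested members on chromosome III had 0.20 in snf22-(D996A-E997A) and 0.10 in snf22∆. At least 2-fold changes, whatever their p, were fitted for 14 members (28.6%) in snf22-(D996A-E997A) and 16 (32.7%) in snf22∆, against 4.47% and 5.63% of coding genes. Both counts include SPAC22F8.03c, SPCC191.04c and SPAPJ695.02, which were tested only because of their counts in the mutants or in WT. They also include SPAC8E11.06 and, in snf22-(D996A-E997A), SPCC569.04, which had fewer than 3 WT libraries with 10 counts. Genes of this kind were not removed from the coding genes either. The signed medians stayed near 0, at 0.14 in snf22-(D996A-E997A) and 0.00 in snf22∆ on the log2 scale, against 0.06 in both mutants for all coding genes. The members' medians were the same with SPAC22F8.03c set at the smaller ratio given for it below. Fold changes of rarely detected genes are estimated with more error, and the part that this plays in the larger sizes was not tested. Of the 111 genus specific genes, 107 were tested, with a median size of 0.28 in snf22-(D996A-E997A) and 0.37 in snf22∆. The 46 dubious loci tested had 0.67 in snf22-(D996A-E997A), with 6 called higher and 1 lower, and 0.54 in snf22∆, with 9 called higher and 1 lower.

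**Figure D2:**
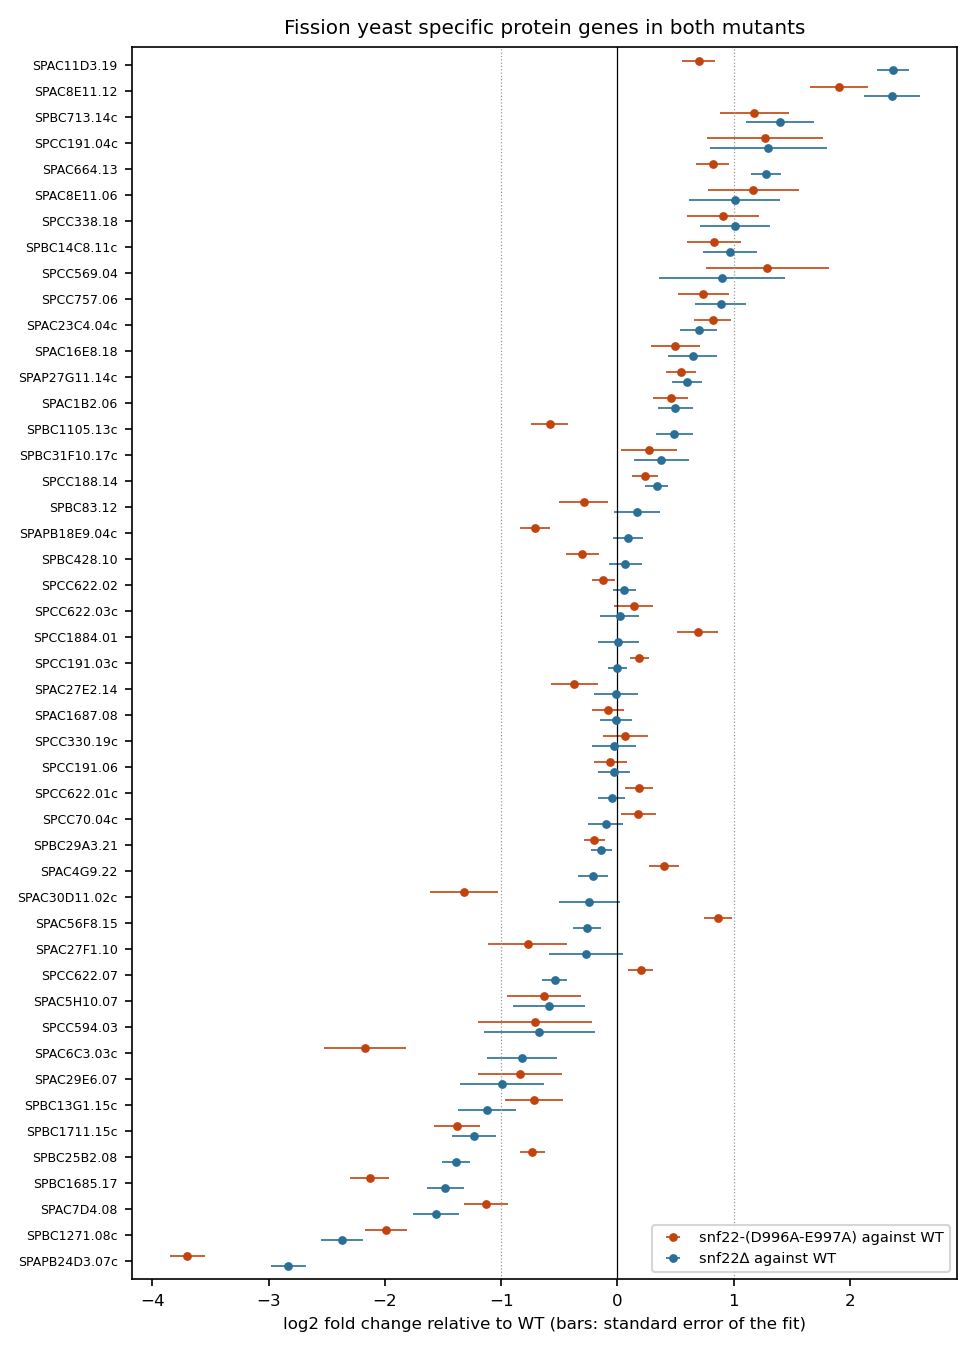
Each row is a tested species specific gene, with its log2 fold change relative to WT in snf22-(D996A-E997A) (orange) and in snf22∆ (blue), with bars for the standard error of the fit and dotted lines at 2-fold; SPAC22F8.03c and SPAPJ695.02, which had at most 1 count in a genotype, are left out. SPAPB24D3.07c lies lowest, at −3.70 in snf22-(D996A-E997A) and −2.83 in snf22∆, and SPAC11D3.19 is highest in snf22∆, at 2.37.

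The 5 genes called lower in both mutants were SPAPB24D3.07c, SPBC1271.08c, SPBC1685.17, SPAC7D4.08 and SPBC1711.15c. Both comparisons share the WT libraries, so that a call in each is not independent.

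SPAPB24D3.07c, the most abundant member in WT by normalized count, had the largest decrease among the called members. It had 302, 206 and 272 normalized counts in snf22-(D996A-E997A), 519, 466 and 443 in snf22∆, and 3947, 2847 and 3347 in WT. The 3 genotypes did not overlap, and its level was 13.0-fold lower in snf22-(D996A-E997A) (log2 fold change −3.70, standard error 0.15, edgeR adjusted p = 1.66e-08) and 7.10-fold lower in snf22∆ (−2.83, standard error 0.15, adjusted p = 6.8e-08) than in WT. The ATPase mutant was also lower than snf22∆, by a log2 fold change of −0.87 (adjusted p = 0.00248), short of 2-fold. An RNA annotated as antisense to it, SPNCRNA.865, had mean normalized counts of 151 in snf22-(D996A-E997A), 168 in snf22∆ and 92.4 in WT, with log2 fold changes relative to WT of 0.72 in snf22-(D996A-E997A) (adjusted p = 0.0332) and 0.88 in snf22∆ (adjusted p = 0.011). The coding genes on each side, a predicted hydrolase and a predicted oxidoreductase, were not called in either mutant.

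SPBC1271.08c fell with both of its coding neighbors. It had 673, 543 and 587 normalized counts in snf22-(D996A-E997A), 437, 511 and 439 in snf22∆, and 1879, 3222 and 2084 in WT. WT replicate 2 was the highest library, and all mutant libraries lay below all WT libraries. The log2 fold change was −1.99 in snf22-(D996A-E997A) and −2.37 in snf22∆ (standard error 0.18 each, edgeR adjusted p = 9.44e-06 and 1.81e-06), and without WT replicate 2 it was −1.73 in snf22-(D996A-E997A) and −2.13 in snf22∆. An RNA annotated as antisense to it, SPNCRNA.1344, had mean normalized counts of 57.2 in snf22-(D996A-E997A), 85.3 in snf22∆ and 145 in WT, and was called lower in snf22-(D996A-E997A) (log2 fold change −1.33, adjusted p = 0.0113). On one side lies tgp1, the glycerophosphodiester transporter gene of the phosphate response, with log2 fold changes of −1.28 in snf22-(D996A-E997A) and −0.53 in snf22∆ (adjusted p = 0.000177 and 0.0167), called in the ATPase mutant. On the other side lies SPBC1271.07c, a predicted N-acetyltransferase gene, with −2.40 in snf22-(D996A-E997A) (adjusted p = 4.08e-07) and −1.55 in snf22∆ (adjusted p = 5.89e-06), called in both. For snf22-(D996A-E997A) relative to snf22∆ the log2 fold change was −0.75 for tgp1 (adjusted p = 0.0117) and −0.85 for SPBC1271.07c (adjusted p = 0.00186), whereas SPBC1271.08c was at 0.38 and did not pass (adjusted p = 0.178).

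SPBC1685.17 had 73.7, 58.0 and 74.8 normalized counts in snf22-(D996A-E997A), 103, 97.1 and 124 in snf22∆, and 304, 266 and 336 in WT. The genotypes did not overlap, and the log2 fold change relative to WT was −2.13 in snf22-(D996A-E997A) and −1.48 in snf22∆ (edgeR adjusted p = 3.33e-06 and 3.04e-05). Its neighbor fhn1, which encodes a protein of eisosomes, furrows of the plasma membrane, was called lower in both mutants as well, at −1.23 in snf22-(D996A-E997A) (adjusted p = 0.00398) and −1.47 in snf22∆ (adjusted p = 0.00107).

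SPAC7D4.08 had 87.5, 67.8 and 88.1 normalized counts in snf22-(D996A-E997A), 56.0, 57.2 and 66.9 in snf22∆, and 140, 211 and 183 in WT. All mutant libraries lay below all WT libraries. The log2 fold change was −1.13 in snf22-(D996A-E997A) (edgeR adjusted p = 0.000932) and −1.56 in snf22∆ (adjusted p = 9.31e-05), and in snf22-(D996A-E997A) it was −1.0 without WT replicate 2, just short of 2-fold. SPBC1711.15c, the shortest member at 99 bases of coding length, had 92.4, 79.6 and 83.0 normalized counts in snf22-(D996A-E997A), 85.7, 80.6 and 118 in snf22∆, and 214, 183 and 270 in WT. Mutant and WT libraries did not overlap, and the log2 fold change was −1.38 in snf22-(D996A-E997A) (edgeR adjusted p = 0.00028) and −1.23 in snf22∆ (adjusted p = 0.00041). Most of it lies on the other strand of rec15, a gene of meiotic recombination with mean normalized counts of 6.69 in snf22-(D996A-E997A), 5.71 in snf22∆ and 5.84 in WT.

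SPBC25B2.08 was called lower in snf22∆ alone. It had 399, 382 and 376 normalized counts in snf22-(D996A-E997A), 265, 255 and 212 in snf22∆, and 678, 661 and 578 in WT, so that the ATPase mutant lay between the others without overlap. The log2 fold change was −0.73 in snf22-(D996A-E997A) and −1.39 in snf22∆ (edgeR adjusted p = 0.000521 and 3.93e-06). The mutants differed in the direct test, with a log2 fold change of 0.66 for snf22-(D996A-E997A) relative to snf22∆ (adjusted p = 0.00283), short of 2-fold.

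**Figure D3:**
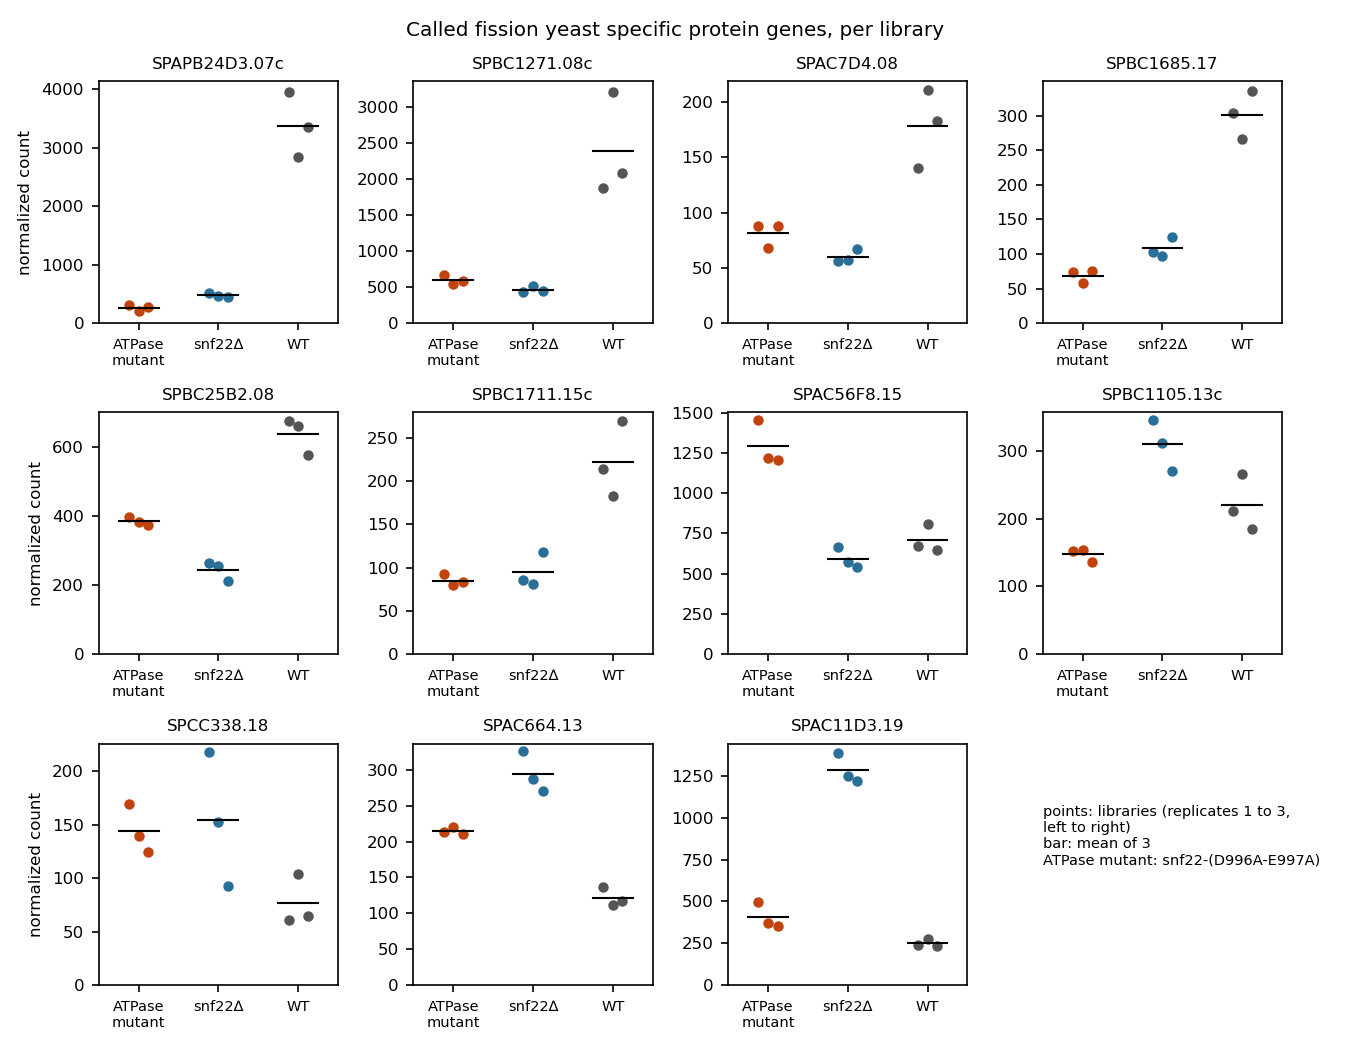
Normalized counts per library of the 11 members called in at least 1 of the 3 comparisons, with snf22-(D996A-E997A) (ATPase mutant), snf22∆ and WT from left to right, points for replicates 1 to 3 and a bar for their mean; every vertical axis starts at 0 and has its own scale. SPAPB24D3.07c is at 206 to 302 in snf22-(D996A-E997A), 443 to 519 in snf22∆ and 2847 to 3947 in WT, whereas SPAC11D3.19 is highest in snf22∆, at 1224 to 1388.

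SPAC11D3.19, SPAC664.13 and SPCC338.18 were called higher in snf22∆. SPAC11D3.19 had 494, 370 and 354 normalized counts in snf22-(D996A-E997A), 1388, 1249 and 1224 in snf22∆, and 238, 276 and 233 in WT. The genotypes did not overlap, and the gene was 5.16-fold higher in snf22∆ (log2 fold change 2.37, standard error 0.14, edgeR adjusted p = 1.86e-07) and 1.63-fold higher in snf22-(D996A-E997A) (0.70, standard error 0.14, adjusted p = 0.00206) than in WT. Its neighbor SPAC1F8.08 carries the same species specific description and was among the IDs left out. That neighbor had log2 fold changes of 0.74 in snf22-(D996A-E997A) and 1.20 in snf22∆ (adjusted p = 5.24e-05 and 7.93e-07), and was called higher in snf22∆.

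SPAC664.13 had 213, 220 and 210 normalized counts in snf22-(D996A-E997A), 326, 287 and 271 in snf22∆, and 136, 111 and 117 in WT. Its libraries ranked by genotype without overlap, with log2 fold changes of 0.82 in snf22-(D996A-E997A) (edgeR adjusted p = 0.000743) and 1.28 in snf22∆ (adjusted p = 2.32e-05). SPCC338.18 had 169, 139 and 124 normalized counts in snf22-(D996A-E997A), 218, 152 and 92.5 in snf22∆, and 60.5, 104 and 64.8 in WT. Its lowest snf22∆ library lay below its highest WT library, the 3 snf22∆ libraries were far apart, and its log2 fold change of 1.01 in snf22∆ (edgeR adjusted p = 0.0147) was the nearest to the 2-fold threshold. With replicate as a block the value was 0.98 (adjusted p = 0.00716), and it was 0.68 without snf22∆ replicate 1, 0.86 without WT replicate 1 and 0.91 without WT replicate 3, so this call did not hold. In snf22-(D996A-E997A) its value of 0.91 became 1.19 without WT replicate 2 and 1.02 without snf22-(D996A-E997A) replicate 3, past the threshold. Just outside the threshold in snf22∆ lay SPBC14C8.11c at 0.97 and SPAC23C4.04c at 0.70, and in snf22-(D996A-E997A) SPCC338.18 at 0.91 and SPAC56F8.15 at 0.87.

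SPBC14C8.11c had 276, 267 and 332 normalized counts in snf22-(D996A-E997A), 312, 332 and 323 in snf22∆, and 171, 96.5 and 227 in WT. Its WT libraries were the most scattered of all members with a WT mean of at least 100, with an SD of 0.62 on the log2 scale, and all its mutant libraries lay above them. With the replicate block its log2 fold change in snf22∆ was 1.01 (edgeR adjusted p = 0.00149), past the threshold. Without WT replicate 3 it was past it in both mutants, at 1.11 in snf22-(D996A-E997A) and 1.24 in snf22∆, and without WT replicate 2 it was lower, at 0.55 in snf22-(D996A-E997A) and 0.67 in snf22∆. In snf22-(D996A-E997A) it did not pass the adjusted p without snf22-(D996A-E997A) replicate 3 (adjusted p = 0.0563).

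Set against each other, the mutants differed in 3 members: relative to snf22∆, 1 was called higher and 2 were called lower in snf22-(D996A-E997A). Of all coding genes tested, 0.822% were called higher and 0.721% lower in this comparison. By the adjusted p alone 5 members were higher and 8 lower, against 8.32% of coding genes higher and 8.0% lower.

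SPAC56F8.15 was higher in snf22-(D996A-E997A). It had 1455, 1221 and 1205 normalized counts in snf22-(D996A-E997A), 667, 572 and 540 in snf22∆, and 671, 811 and 645 in WT. The ATPase mutant lay above both other genotypes, which overlapped, and its log2 fold change was 1.12 relative to snf22∆ (standard error 0.12, edgeR adjusted p = 7.35e-05), 0.87 relative to WT (adjusted p = 0.000223) and, for snf22∆ relative to WT, −0.26 (adjusted p = 0.0889). The dubious locus SPAC56F8.13 beside it was called higher in both mutants, at 1.5 in snf22-(D996A-E997A) and 1.01 in snf22∆ (adjusted p = 0.00011 and 0.00109). The neighbor on its other side, esc1, a transcription factor gene, had a log2 fold change of 0.65 for snf22-(D996A-E997A) relative to snf22∆ (adjusted p = 0.000154).

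SPAC11D3.19, described above, went the other way, with a log2 fold change of −1.66 for snf22-(D996A-E997A) relative to snf22∆ (standard error 0.13, edgeR adjusted p = 6.5e-06). The third, SPBC1105.13c, was the only member that passed the adjusted p in both mutants in opposite directions. It had 152, 154 and 136 normalized counts in snf22-(D996A-E997A), 347, 313 and 271 in snf22∆, and 212, 267 and 185 in WT. WT lay between the mutants without overlap, with log2 fold changes of −0.58 in snf22-(D996A-E997A) and 0.49 in snf22∆ relative to WT (edgeR adjusted p = 0.0124 and 0.0193) and of −1.07 between the mutants (standard error 0.16, adjusted p = 0.000911). The value between the mutants was −0.99 without snf22∆ replicate 1 and −1.0 without snf22-(D996A-E997A) replicate 3, just short of 2-fold in both cases. Nor did each difference from WT hold in every case: the adjusted p in snf22-(D996A-E997A) was 0.0525 without its replicate 3, and in snf22∆ it was 0.0588 without WT replicate 1, 0.0877 without snf22∆ replicate 1 and 0.0546 without snf22∆ replicate 2. Its neighbor hhf3, a histone H4 gene, had nearly equal log2 fold changes in the mutants, at −0.42 in snf22-(D996A-E997A) (adjusted p = 0.0286) and −0.44 in snf22∆ (adjusted p = 0.0213).

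Some members passed the adjusted p in 1 mutant and not in the other, and for these the direct test between the mutants shows which differ. Higher than WT in snf22-(D996A-E997A) alone were SPAC4G9.22, SPAC56F8.15 and SPCC1884.01, and for each the mutants differed by the adjusted p. For SPAC4G9.22 the difference from WT was lost without WT replicate 1, as given above. SPCC1884.01 had 119, 136 and 159 normalized counts in snf22-(D996A-E997A), 88.4, 80.6 and 88.5 in snf22∆, and 82.0, 73.8 and 101 in WT, with a log2 fold change of 0.68 between the mutants (edgeR adjusted p = 0.0209). In snf22∆ alone SPAC16E8.18 and SPCC188.14 were higher than WT, but between the mutants they had an adjusted p of 0.656 and 0.568, so that no difference was shown. SPCC191.04c also passed in snf22∆ alone, but it was tested only because of its mutant counts, with 7, 7 and 11 raw counts in snf22-(D996A-E997A), 7, 10 and 11 in snf22∆, and 3, 2 and 4 in WT. Lower than WT in snf22-(D996A-E997A) alone were SPAC30D11.02c and SPAPB18E9.04c, with log2 fold changes of −1.08 (adjusted p = 0.0241) and −0.80 relative to snf22∆. In snf22∆ alone SPCC622.07 and SPAC29E6.07 were lower than WT. For SPAC29E6.07 the mutants did not differ by the test (adjusted p = 0.826), and its WT libraries had 31.2, 76.1 and 32.4 normalized counts, the highest being WT replicate 2. Another 17 of the 49 passed in neither mutant.

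Several of these were chosen for description after their values were seen. SPAPB18E9.04c, the possible cell surface glycoprotein, had 829, 781 and 829 normalized counts in snf22-(D996A-E997A), 1373, 1370 and 1504 in snf22∆, and 1120, 1668 and 1210 in WT. The ATPase mutant libraries lay below all others, with a log2 fold change of −0.71 relative to WT and −0.80 relative to snf22∆ (edgeR adjusted p = 0.00126 and 0.00147), while snf22∆ was at 0.09 relative to WT (adjusted p = 0.574). SPCC622.07 had 464, 419 and 439 normalized counts in snf22-(D996A-E997A), 242, 265 and 279 in snf22∆, and 369, 422 and 355 in WT. Here snf22∆ lay below the others, at −0.54 relative to WT (adjusted p = 0.00215), and the ATPase mutant was 0.75 higher than snf22∆ on the log2 scale (adjusted p = 0.00103). SPAC23C4.04c had 237, 175 and 212 normalized counts in snf22-(D996A-E997A), 203, 183 and 190 in snf22∆, and 123, 99.9 and 131 in WT. Both mutants lay above WT and overlapped each other, with log2 fold changes of 0.82 in snf22-(D996A-E997A) (adjusted p = 0.00203) and 0.70 in snf22∆ (adjusted p = 0.00344).

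Other members changed strongly at levels too low to be called. SPAPJ695.02, which lies under 100 kb from one end of chromosome I, had 0, 0 and 1 raw counts in snf22-(D996A-E997A), 2, 5 and 3 in snf22∆, and 50, 53 and 59 in WT. Its ratio of snf22-(D996A-E997A) to WT was 0.00549 after scaling for library size (95% exact interval 0.000138 to 0.031, for counting error only), and its snf22∆ libraries lay far below WT too. Since it was tested only because of its WT counts, no p is given for it. SPAC22F8.03c showed the reverse, with 9, 11 and 14 raw counts in snf22-(D996A-E997A), 14, 6 and 14 in snf22∆, and 0 in each WT library. Against a floor of 3 counts over the WT libraries together, its ratio to WT was 10.1 in snf22-(D996A-E997A) and 9.2 in snf22∆. These ratios leave out the counting error of the mutant counts, so they are not strict lower bounds. Beside it lies pet1, a gene of a Golgi phosphoenolpyruvate transporter, which was called higher in snf22-(D996A-E997A) at a log2 fold change of 1.57 (adjusted p = 5.56e-07) and stood at 0.74 in snf22∆ (adjusted p = 0.000126).

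SPAC8E11.12 had 62.9, 70.8 and 83.0 normalized counts in snf22-(D996A-E997A), 98.9, 79.8 and 118 in snf22∆, and 17.6, 17.0 and 23.3 in WT. Mutant and WT libraries were far apart, with log2 fold changes of 1.91 in snf22-(D996A-E997A) (edgeR adjusted p = 0.000143) and 2.36 in snf22∆ (adjusted p = 1.89e-05), and only its mean below 100 kept it from being called. SPBC713.14c had 60.9, 29.5 and 45.1 normalized counts in snf22-(D996A-E997A), 52.5, 59.0 and 46.2 in snf22∆, and 18.5, 18.2 and 23.3 in WT, with log2 fold changes of 1.18 in snf22-(D996A-E997A) (adjusted p = 0.00784) and 1.40 in snf22∆ (adjusted p = 0.00206). SPAC6C3.03c had 5.90, 5.90 and 5.12 normalized counts in snf22-(D996A-E997A), 8.75, 18.2 and 16.7 in snf22∆, and 25.4, 26.1 and 25.9 in WT. The genotypes ranked without overlap, with log2 fold changes of −2.17 in snf22-(D996A-E997A) (adjusted p = 0.000656) and −0.82 in snf22∆ (adjusted p = 0.0327).

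Values of neighboring genes were set beside those of the members. The coding genes next to the 60 placed members, 118 in all, were taken from the order of genes in RefSeq. Over all coding genes tested, 1.74% were called lower and 1.56% higher in snf22-(D996A-E997A), and 2.22% each way in snf22∆. How often neighboring genes in general share a sign was not measured, so the links below are a description only. In snf22-(D996A-E997A) 9 of the member and neighbor links had a called neighbor, 2 higher and 7 lower. The member's log2 fold change had the same sign as the neighbor's in 6 and the opposite sign in 3. Where the member passed the adjusted p, the sign was the same in 5 and opposite in 2. The same-sign links in both counts include SPAC22F8.03c, which was tested only because of its mutant counts. SPBC1271.08c enters both counts through each of its neighbors, tgp1 and SPBC1271.07c. In snf22∆ 13 links had a called neighbor, 4 higher and 9 lower. The member was tested in 11 of them, with the same sign in 6 and the opposite sign in 5. Where the member passed the adjusted p in snf22∆, the sign was the same in 3 and opposite in 3.

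Same-sign links besides those given above include SPAC5H10.07 beside adh4, an alcohol dehydrogenase gene. SPAC5H10.07 was at −0.63 in snf22-(D996A-E997A) and −0.59 in snf22∆ and passed neither test (edgeR adjusted p = 0.116 and 0.13), whereas adh4 was at −1.92 in snf22-(D996A-E997A) (adjusted p = 1.05e-06) and −1.66 in snf22∆ (adjusted p = 1.95e-06). Opposite signs were seen beside ctt1, the catalase gene, which was called lower in both mutants, at −2.55 in snf22-(D996A-E997A) (adjusted p = 3.33e-06) and −1.65 in snf22∆ (adjusted p = 5.71e-05). Its neighbor SPCC757.06, on the other strand, was higher, at 0.74 in snf22-(D996A-E997A) (adjusted p = 0.0176) and 0.89 in snf22∆ (adjusted p = 0.0051). It had 58.0, 61.9 and 50.2 normalized counts in snf22-(D996A-E997A), 70.9, 58.1 and 60.0 in snf22∆, and 40.0, 26.1 and 35.0 in WT. SPAC8E11.12 lies beside SPAC8E11.10, a gene of sorbose reductase called lower in both mutants, at −1.04 in snf22-(D996A-E997A) (adjusted p = 3.89e-06) and −1.60 in snf22∆ (adjusted p = 8.92e-08). SPBC713.14c lies beside pmp3, which encodes a plasma membrane proteolipid and stood at −0.63 in snf22-(D996A-E997A) (adjusted p = 0.0113) and at −1.5 in snf22∆ (adjusted p = 4.68e-05), where it was called lower.

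**Figure D4:**
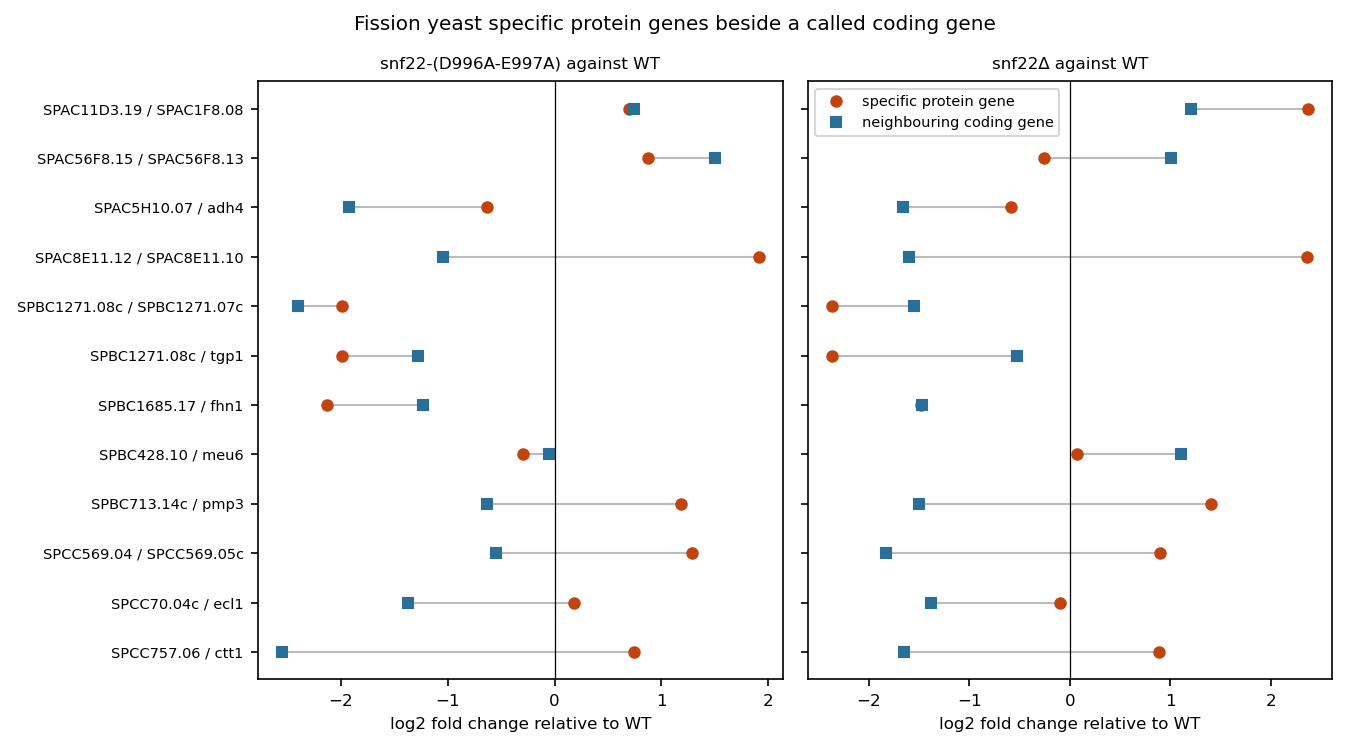
Log2 fold changes relative to WT of tested members (orange circles) and of the neighboring coding gene (blue squares) for links in which the neighbor was called in at least 1 mutant, with snf22-(D996A-E997A) on the left and snf22∆ on the right and without SPAC22F8.03c. SPBC1271.08c and SPBC1685.17 lie on the same side of 0 as their neighbors, and SPAC8E11.12, SPBC713.14c and SPCC757.06 lie on the opposite side in both panels.

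For 17 members at least 50% of the gene is covered by another annotated gene on the other strand. The libraries were stranded, but the sources used here do not give the strand setting of the counting, and without strand the reads of such pairs cannot be told apart. SPCC622.02 lies wholly within the bounds of SPCC622.03c on the other strand, and both are members. These bounds are from RefSeq (ASM294v3), whereas the reads were counted on ASM294v2. Their mean normalized counts were 608 and 69.7 in snf22-(D996A-E997A), 689 and 64.3 in snf22∆, and 662 and 63.6 in WT. If the same bounds held in the counting, the reads of the covered gene were not dropped as ambiguous. Of the 11 members called in any comparison, SPAPB24D3.07c and SPBC1711.15c are among the 17. So are SPAC6C3.03c, SPBC713.14c, SPBC14C8.11c, SPBC31F10.17c, SPCC1884.01 and SPAC27E2.12, whose values are given above with the same limit.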

How the data were processed

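The authors grew the cultures, made stranded libraries from poly(A)+ RNA, aligned the reads (HISAT2 2.1.0, genome version ASM294v2) and counted them per gene (HTSeq 0.10.0). The values used are the raw counts as deposited, and of the authors' DESeq2 tables, which hold fold changes and p-values, the IDs and product descriptions alone were used. After TMM normalization, counts were tested in edgeR 4.0.16 (glmQLFit, glmQLFTest; R 4.3.3) in 1 fit of all 9 libraries with genotype as the only factor, with Benjamini-Hochberg adjustment over 6091 genes (at least 10 counts in at least 3 libraries). Standard errors come from the fit, and p-values measure the spread between 3 libraries per genotype. The procedure was tried on simulated data with independent libraries, in which genes with a WT mean of at least 100 changed by more than 2-fold in snf22∆. It was not tried on changes in rarer genes, on smaller changes or on correlated libraries. Deviations from genotype means correlated between snf22∆ and WT libraries of the same number (0.29, 0.23 and 0.47). The main fit did not pair them, so its p-values for snf22∆ leave this correlation out. The replicate block was fitted as an alternative for every comparison. By rule, 19 members were named: those called, the 8 most abundant per kb in WT, the 3 least steady, and those nearest the 2-fold threshold, with called neighbors. Other members described were chosen after their values were seen. Members, lists and tests were chosen with earlier results of these data known. RefSeq (ASM294v3) gave coding lengths, gene order, chromosomes, positions, strands, overlaps and the remark on SPBC25B2.08. Alternatives were DESeq2 1.42.0, other size factors, filters and thresholds, a replicate block and leaving out each library.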

Additional observations from a re-analysis of the deposited data

Results flagged for a closer look

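For 3 members the mutants differed from each other by the direct test and by at least 2-fold. SPAC11D3.19 was higher in both mutants than in WT but less so in snf22-(D996A-E997A), with a log2 fold change of −1.66 relative to snf22∆. SPAC56F8.15 was higher in snf22-(D996A-E997A) than in snf22∆ by 1.12 on the log2 scale. SPBC1105.13c lay below WT in snf22-(D996A-E997A) and above WT in snf22∆, and differed by −1.07 between them. Groups of 3 libraries are too small to look for a single outlying library in this way.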

How the results depend on the processing

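The genes called lower in both mutants were the same 5 under DESeq2, DESeq2's size factors in edgeR, no filter on low counts, fits of only the 2 genotypes compared and the replicate block. Leaving out WT replicate 2 ended the call of SPAC7D4.08 in snf22-(D996A-E997A). With DESeq2 or its size factors, 2 members in place of 3 were called higher in snf22∆. For snf22-(D996A-E997A), snf22∆ and the mutants against each other, the adjusted p alone gave 15 and 12, 16 and 11, and 5 and 8 members higher and lower. Without the threshold on the mean count these were 4 and 8, 8 and 8, and 1 and 4, and with a 1.5-fold threshold they were 7 and 7, 7 and 6, and 5 and 5. For these other thresholds the shares of all coding genes were not counted, so the members' counts cannot be set against them. When each library was left out in turn, 0 to 1 members rose and 4 to 5 fell in snf22-(D996A-E997A), with 2 to 4 higher and 6 to 7 lower in snf22∆, and 1 higher and 1 to 2 lower between the mutants.

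Under the replicate block the counts of members were 0 higher and 5 lower, 3 higher and 6 lower, and 1 higher and 2 lower for these comparisons. In snf22∆, SPCC338.18 (0.98) left and SPBC14C8.11c (1.01) entered, and no other call changed.

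Single members were refitted under the alternatives for the 19 named by rule, and among these the signs that reversed belonged to values that were not called. SPCC191.03c in snf22∆ (0.00) became 0.01 without the filter, 0.00 with the block and −0.10 to 0.04 without single libraries, and SPCC622.01c in snf22∆ ranged over −0.17 to 0.07. Between the mutants, SPBC1711.15c ranged over −0.26 to 0.03, SPBC31F10.17c over −0.29 to 0.06 and SPCC338.18 over −0.36 to 0.23 on the log2 scale.

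Depth limits the 12 members not tested and the low members, where few counts carry a value. The marker, and the kept end of snf22, cannot be told apart from the mutations.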
